A study of Oryctolagus cuniculus with 16 samples.

Results

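The genes described here are 57 genes of mitosis, the spindle and the kinetochore, in the femoral head of rabbits with and without a surgical model of Perthes disease. Perthes disease is a childhood disorder in which the blood supply of the femoral head is interrupted and the bone dies. The genes were found by matching a list of 57 gene symbols against the symbols of the deposited gene table, with no measured value used in the match. Each symbol matched exactly 1 of the 20255 genes in the table, and all 57 passed the filter on low counts that left 15305 genes for testing. The list itself was drawn up with earlier results of these data known, so its direction is not independent evidence.

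Total RNA was sequenced from femoral head tissue of 8 rabbits. In 5 of them (Perthes 1 to 5) surgery at an age of 8 weeks had cut off the supply of blood, by a ligature around the neck of the femur and by division of the ligament that joins the head to the hip socket. The 3 controls (control 1 to 3) are labelled wild type. Their age, any operation on them and the time between surgery and sampling are not given in the sources used here. The model interrupts the blood supply by surgery in wild-type animals, and which parts of the femoral head were taken is not stated. Markers of chondrocytes and of osteoblasts and osteocytes were high in all 8 libraries, with summed levels of 40552 to 158700 and 88816 to 243780 CPM, counts scaled to the size of each library after TMM normalization.

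During mitosis the duplicated chromosomes are compacted, attached by their kinetochores to the microtubules of the spindle, and held until every kinetochore is attached. The checkpoint proteins then release the anaphase-promoting complex, the sister chromatids are separated, and the cell is cleaved in cytokinesis. Most of the genes involved are transcribed mainly in the late part of the cell cycle, so their RNA is commonly read as a sign of dividing cells. In the growing femoral head, dividing cells are found in the marrow and among the chondrocytes of the growth cartilage. In whole tissue, fewer cells of a dividing type and less RNA per cell cannot be told apart.

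Each library held 26757087 to 29461482 counts, and the 10 most abundant genes took 21.5% to 36.9% of them. The first principal component of all tested genes carried 56.1% of the variance, and the next carried 13.1%. Perthes 4 stood apart from the other 7 libraries on the latter, at -78.4 against -7.51 to 27.5. No sequencing batch is named in the sources used here. The labels call the rabbits replicates, and the tests set the difference between the groups against the spread among rabbits within each group. The biological coefficient of variation was 0.3613 over all genes.

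The 57 mitosis genes were lower in the Perthes femoral heads in every role into which they were divided. The summed level of the 57 genes was 713, 1383, 708, 970.0 and 781 CPM in Perthes 1 to 5 and 3221, 2553 and 2535 CPM in control 1 to 3. The highest Perthes value lay below the lowest control value. These sums corresponded to 25.7%, 49.9%, 25.5%, 35.02% and 28.2% of the control mean in the Perthes rabbits. Perthes 2 was the least reduced of the 5. As a share of all counts, the genes took 0.0657% to 0.130% of a Perthes library and 0.265% to 0.327% of a control library. Genes with many reads weigh most in such sums, so the counts of genes are given next.

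Of the 57 genes, 54 were lower in the Perthes group and 0 were higher at an adjusted p below 0.05, by the quasi-likelihood test of edgeR with Benjamini-Hochberg adjustment over the 15305 genes. Among all genes tested, 8.86% were called lower and 6.21% higher. An unadjusted p below 0.05 was reached by 56 of the 57 genes, all of them lower, against 16.6% of all genes. DESeq2 called 56 lower, against 11.0% of all genes, and 0 higher. The median log2 fold change (Perthes over control) was -1.64, against 0.02 for all genes, and single values ran from -2.36 for KIF18B to -0.90 for CENPK. The fall exceeded 1 on the log2 scale in 52 of the called genes, against 6.72% of all genes, and 0 rose by as much, against 4.21%. All 57 log2 fold changes were below 0, as were 48.4% of those of all genes. In 55 genes every Perthes rabbit lay below every control, against 13.9% of all genes, and in 0 genes was the order the reverse, against 11.2%. The exceptions were CENPA and CENPK.

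**Figure D1:**
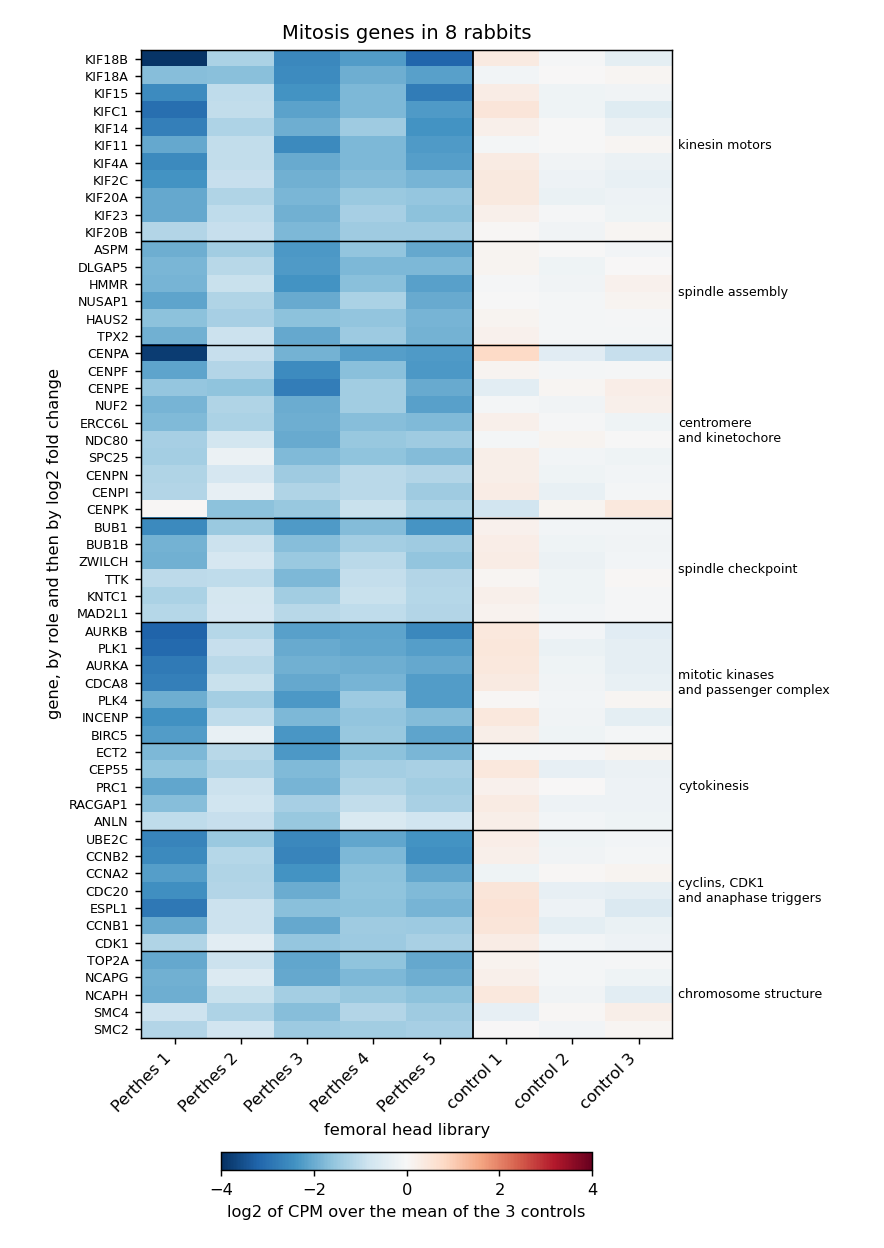
Levels of the 57 mitosis genes in the 8 femoral heads. Each cell is the log2 of the CPM divided by the mean CPM of the 3 controls, rows are genes ordered by role and then by log2 fold change, and the vertical line separates the 5 Perthes from the 3 control libraries. Nearly all Perthes cells are blue (below the control mean), the column of Perthes 2 is the palest of the 5, and CENPK in Perthes 1 is the exception at 5.67 CPM against a control mean of 5.44 CPM.

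The calls depended on which controls were kept. Without control 2 the number of mitosis genes called fell from 54 to 0, and the same setting called 0 of 15594 genes in the whole table, while 56 of the 57 genes kept an unadjusted p below 0.05. The smallest edgeR adjusted p among the 57 genes was then 0.0519, just over the threshold, and their median log2 fold change was -1.70. Without control 1 the number was 20, and without any 1 of the other 6 rabbits it was 43 to 56. All 57 log2 fold changes stayed negative whichever rabbit was left out.

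**Figure D2:**
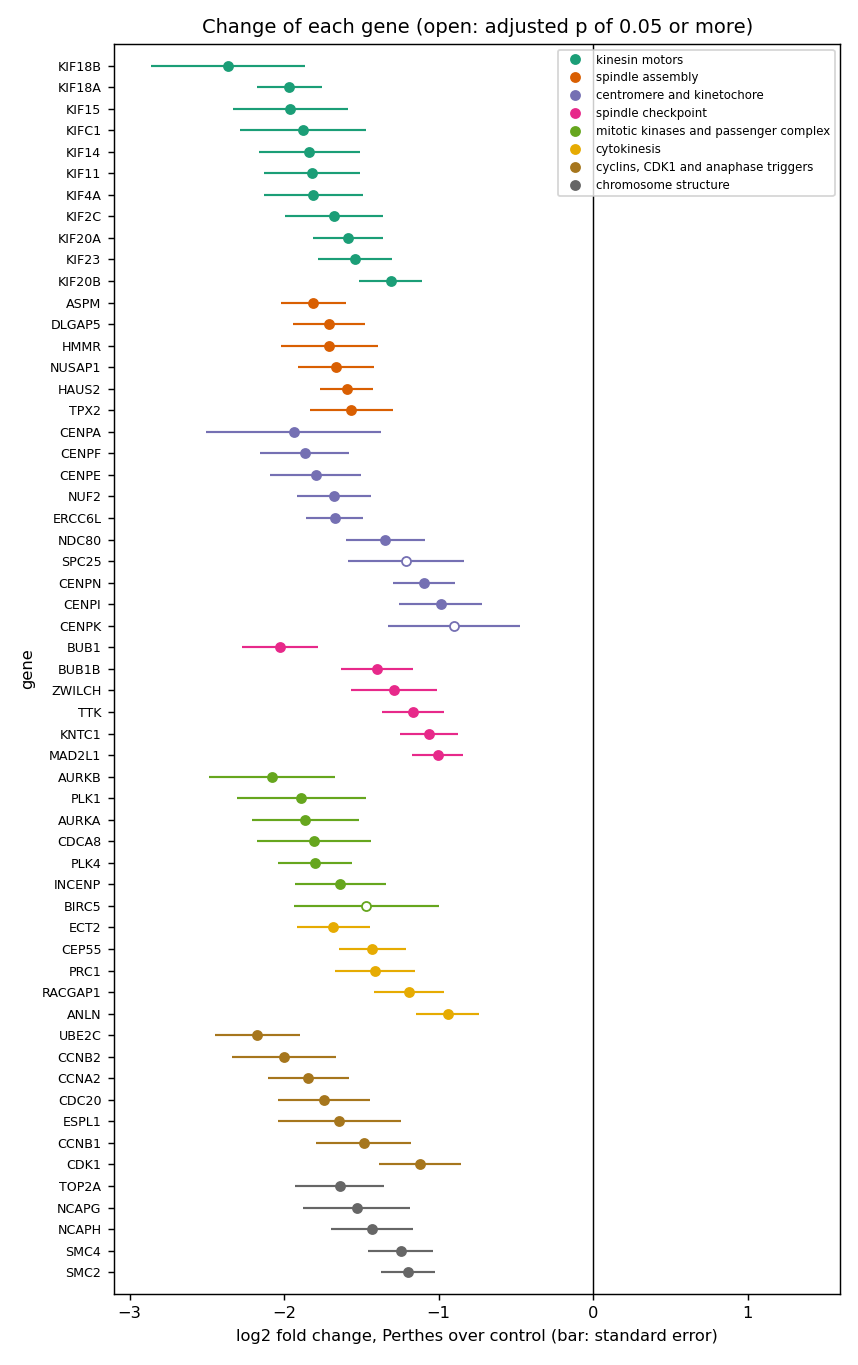
Log2 fold change of each mitosis gene, Perthes over control, with its standard error as the horizontal bar and colors for the 8 roles. All 57 points lie left of 0, and the 3 open symbols are the genes with an adjusted p of 0.05 or more (SPC25, BIRC5 and CENPK).

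The kinesins among these genes are motor proteins that slide, sort or shorten spindle microtubules. All 11 were lower in the Perthes group, with a median log2 fold change of -1.82. KIF11 (gene 100346135), whose motor pushes the spindle poles apart, had the most reads of the group. Its level was 22.9, 47.4, 16.2, 27.2 and 19.7 CPM in Perthes 1 to 5 and 89.2, 93.3 and 99.8 CPM in control 1 to 3. The controls were close to each other and the groups did not overlap. KIF11 fell by 1.82 on the log2 scale (SE 0.31, edgeR adjusted p = 0.0133), from a mean of 94.1 ± 5.32 CPM (SD, n = 3) to 26.7 ± 12.2 CPM (SD, n = 5).

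KIF18B (gene 100340694), a kinesin that works at the plus ends of microtubules, had the largest fall of all 57 genes. It was measured at 3.85, 24.6, 9.77, 12.4 and 6.603 CPM in Perthes 1 to 5, and at 75.4, 56.9 and 44.5 CPM in the controls. Perthes 1 was the lowest and Perthes 2 the highest of the Perthes rabbits, and no value reached the control range. The log2 fold change was -2.36 (SE 0.50, edgeR adjusted p = 0.0183), a fall of 80.6%. Its relative KIF18A (gene 100345219), which limits the movements of chromosomes on the spindle, was far more even between animals. KIF18A stood at 6.72, 6.85, 3.82, 5.64 and 4.83 CPM in the Perthes rabbits and at 20.4, 22.003 and 22.9 CPM in the controls. With that small spread it was among the 3 mitosis genes with the smallest p (log2 fold change -1.97, SE 0.21, edgeR adjusted p = 0.0118).

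KIF20B (gene 100339334), a kinesin of late mitosis and cytokinesis, had the smallest fall among the motors. Its values were 9.15, 10.9, 5.91, 7.68 and 7.69 CPM in Perthes 1 to 5 and 21.3, 18.8 and 21.5 CPM in the controls. These groups did not overlap either, and the log2 fold change was -1.31 (SE 0.20, edgeR adjusted p = 0.0120). The other 7 motors, KIF15, KIFC1, KIF14, KIF4A, KIF2C, KIF20A and KIF23, had log2 fold changes from -1.96 to -1.54.

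Genes of spindle assembly organize microtubules at the poles or around the chromosomes. All 6 were lower, within a narrow range of log2 fold changes from -1.81 to -1.56. ASPM (gene 100346224), which focuses microtubules at the spindle poles, was at 35.2, 52.1, 28.0, 45.9 and 33.1 CPM in Perthes 1 to 5 and at 149, 134 and 127 CPM in the controls. Every Perthes value was far below the controls. ASPM fell by 1.81 on the log2 scale (SE 0.21, edgeR adjusted p = 0.0118).

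TPX2 (gene 100342435), an activator and spindle anchor of the kinase AURKA, changed least in this group. Its level was 23.0, 48.3, 21.3, 31.7 and 23.6 CPM in the Perthes rabbits against 97.5, 82.4 and 82.5 CPM in the controls. Perthes 2 again had the highest Perthes value, and the groups were separate (log2 fold change -1.56, SE 0.27, edgeR adjusted p = 0.0133). HAUS2 (gene 100339331) is a subunit of augmin, the complex that starts new microtubules along existing ones. It measured 4.56, 5.65, 4.52, 4.77 and 3.95 CPM in Perthes 1 to 5 and 15.4, 13.4 and 13.8 CPM in the controls. Both groups were tight for HAUS2, which had a fold change of -1.60 on the log2 scale with an SE of 0.17 (edgeR adjusted p = 0.0118). The other 3 genes, DLGAP5, HMMR and NUSAP1, lay between -1.71 and -1.66.

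Centromere and kinetochore genes, whose proteins tie chromosomes to microtubules, held 2 of the 3 genes that edgeR did not call. Of 10 genes, 8 were lower, with a median log2 fold change of -1.51. CENPF (gene 100343995), a large protein of the outer kinetochore, was at 34.3, 65.8, 26.0, 46.4 and 29.7 CPM in Perthes 1 to 5 and at 160, 139 and 143 CPM in the controls. The groups were well apart, and the log2 fold change was -1.87 (SE 0.29, edgeR adjusted p = 0.0118). ERCC6L (gene 100351787), a helicase that acts on DNA bridges between separating chromatids, was at 8.68, 12.2, 7.67, 9.06 and 8.65 CPM in the Perthes rabbits and at 34.1, 28.4 and 26.1 CPM in the controls. It was even within the Perthes group, and its fall of 1.67 on the log2 scale had an SE of 0.19 (edgeR adjusted p = 0.0118).

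CENPA (gene 100353660), the histone variant that marks centromeres, was at 1.25, 9.32, 4.74, 3.82 and 3.68 CPM in Perthes 1 to 5 and at 30.5, 12.8 and 9.15 CPM in the controls. Perthes 2 lay above control 3, so the groups overlapped, and control 1 was far above the other controls. The log2 fold change was the largest of this group at -1.94, with the largest SE of all the mitosis genes at 0.57 and an edgeR adjusted p of 0.049985, just inside the threshold. Without control 1 it was -1.27 with an edgeR adjusted p of 0.223.

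CENPK (gene 100355798), a subunit of the inner kinetochore, was called neither by edgeR nor by DESeq2 (adjusted p = 0.161). Its level was 5.67, 1.76, 1.91, 2.91 and 2.28 CPM in the Perthes rabbits and 3.22, 5.82 and 7.28 CPM in the controls. Perthes 1 lay within the control range, and control 1 was the lowest control, which is the reverse of the order seen for most of the 57 genes. The log2 fold change was -0.90 (SE 0.43, edgeR adjusted p = 0.182), and without Perthes 1 it was -1.29 (edgeR adjusted p = 0.0407). SPC25 (gene 100345496), a subunit of the Ndc80 complex that binds microtubules, is added here because it was the other kinetochore gene that edgeR did not call. It was at 2.03, 4.34, 1.51, 1.71 and 1.57 CPM in the Perthes rabbits and at 6.11, 4.80 and 4.59 CPM in the controls. The groups did not overlap, although Perthes 2 came close to control 3 (log2 fold change -1.21, SE 0.37, edgeR adjusted p = 0.0580). DESeq2 called SPC25 lower, with an adjusted p of 0.0154. The partners of SPC25 in that complex, NUF2 and NDC80, were lower at -1.68 and -1.34.

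The spindle checkpoint delays anaphase until all kinetochores are attached. All 6 checkpoint genes were lower, with the smallest median fall of the 8 roles, at -1.23. BUB1 (gene 100352234), a checkpoint kinase, was at 6.79, 14.0, 8.11, 11.8 and 7.66 CPM in Perthes 1 to 5 and at 44.5, 36.7 and 36.8 CPM in the controls. No Perthes value came near the controls, and BUB1 had the largest fall of this role (log2 fold change -2.03, SE 0.25, edgeR adjusted p = 0.0118). KNTC1 (gene 100346329), part of the complex that brings dynein to kinetochores, was at 31.2, 46.2, 28.7, 40.9 and 34.4 CPM in the Perthes rabbits and at 87.7, 66.6 and 72.8 CPM in the controls. The separation was narrower here, with a log2 fold change of -1.06 (SE 0.19, edgeR adjusted p = 0.0134).

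MAD2L1 (gene 100354882), which encodes the checkpoint protein that holds back CDC20, changed least. Its level was 11.7, 16.1, 11.9, 12.7 and 11.4 CPM in Perthes 1 to 5 and 28.4, 23.7 and 24.7 CPM in the controls. Apart from Perthes 2 the Perthes rabbits were nearly equal. The log2 fold change was -1.01 (SE 0.16, edgeR adjusted p = 0.0123), a fall of 50.2%. BUB1B, ZWILCH and TTK lay between -1.40 and -1.17.

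Among the mitotic kinases and the chromosomal passenger complex, 6 of 7 genes were lower, with a median log2 fold change of -1.81. PLK1 (gene 100356287), a kinase needed from mitotic entry to cytokinesis, was at 10.03, 46.1, 21.6, 20.5 and 18.9 CPM in Perthes 1 to 5 and at 119, 72.8 and 67.8 CPM in the controls. Perthes 1 was the lowest and control 1 the highest library, and the groups did not overlap (log2 fold change -1.89, SE 0.42, edgeR adjusted p = 0.0211). AURKB (gene 100356225), the kinase of the passenger complex, which corrects faulty attachments, had the same order of rabbits at the ends. It was at 3.75, 15.8, 7.67, 8.11 and 5.89 CPM in the Perthes rabbits and at 46.2, 32.5 and 25.7 CPM in the controls. AURKB fell by 2.08 on the log2 scale (SE 0.41, edgeR adjusted p = 0.0151).

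BIRC5 (gene 103346801), which encodes survivin, the passenger subunit that docks the complex on chromatin, was not called by edgeR. It was at 0.777, 2.96, 0.734, 1.27 and 0.851 CPM in Perthes 1 to 5 and at 4.25, 3.21 and 3.49 CPM in the controls. Perthes 2 was close to the controls and the other 4 rabbits were well below. The log2 fold change was -1.47 (SE 0.47, edgeR adjusted p = 0.0638). Without Perthes 2 it was -2.0015 (edgeR adjusted p = 0.00435), and DESeq2 gave an adjusted p of 0.0174 with all rabbits. The other passenger genes, CDCA8 and INCENP, were lower at -1.81 and -1.64, as were AURKA at -1.86 and PLK4, the kinase of centriole duplication, at -1.80.

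All 5 cytokinesis genes were lower, with a median log2 fold change of -1.41. ANLN (gene 100351074), an actin-binding scaffold of the cleavage furrow, was at 31.0, 33.0, 21.96, 40.7 and 36.4 CPM in Perthes 1 to 5 and at 74.3, 57.8 and 55.9 CPM in the controls. Here Perthes 4 rather than Perthes 2 was the highest Perthes rabbit, and the groups were separate. ANLN had the smallest fall among the 54 genes called lower (log2 fold change -0.94, SE 0.21, edgeR adjusted p = 0.0204). ECT2 (gene 100356055), the exchange factor that switches on RhoA at the furrow, changed most. It was at 9.25, 14.7, 6.499, 10.1 and 9.02 CPM in the Perthes rabbits and at 30.2, 31.1 and 34.3 CPM in the controls. The controls were even and far above (log2 fold change -1.68, SE 0.24, edgeR adjusted p = 0.0118). CEP55, PRC1 and RACGAP1 lay between -1.43 and -1.19.

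The cyclins, CDK1 and the triggers of anaphase drive the cell into mitosis and out of it, and all 7 were lower, with a median log2 fold change of -1.74. UBE2C (gene 100338187), the ubiquitin-conjugating enzyme that works with the anaphase-promoting complex, had the largest fall. It was at 4.59, 10.3, 4.85, 6.8035 and 5.45 CPM in Perthes 1 to 5 and at 34.4, 25.4 and 26.6 CPM in the controls. The groups were far apart, and UBE2C fell by 77.8% (log2 fold change -2.17, SE 0.27, edgeR adjusted p = 0.0118). CDK1 (gene 100352863), the kinase that starts mitosis, changed least in the group. Its level was 17.4, 29.7, 13.6, 14.4 and 16.2 CPM in the Perthes rabbits and 48.3, 36.6 and 34.3 CPM in the controls. Perthes 2 approached the lowest control without reaching it (log2 fold change -1.12, SE 0.27, edgeR adjusted p = 0.0257).

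ESPL1 (gene 100356105) encodes separase, the protease that cuts the rings holding sister chromatids together. It was at 9.22, 37.3, 21.2, 21.4 and 18.5 CPM in Perthes 1 to 5 and at 98.2, 58.8 and 44.6 CPM in the controls. Both groups were widely spread, with Perthes 1 lowest and control 1 highest (log2 fold change -1.64, SE 0.40, edgeR adjusted p = 0.0272). The cyclin genes CCNB2, CCNA2 and CCNB1 were lower at -2.001, -1.84 and -1.48, and CDC20, the activator of the anaphase-promoting complex, at -1.74.

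Genes of chromosome structure, topoisomerase II and condensin subunits, were lower in all 5 cases, with a median log2 fold change of -1.43. TOP2A (gene 100357676), which untangles DNA and builds the chromosome axis, had the most reads of all 57 genes. It was at 50.3, 113, 48.8, 67.6 and 50.3 CPM in Perthes 1 to 5 and at 225, 193 and 199 CPM in the controls. All Perthes rabbits were below the controls, with Perthes 2 nearest to them (log2 fold change -1.64, SE 0.29, edgeR adjusted p = 0.0133). SMC2 (gene 100339199), a core ATPase of condensin, changed least, at 30.4, 39.9, 25.2, 26.2 and 27.0 CPM against 69.8, 63.9 and 71.4 CPM. The groups were again separate (log2 fold change -1.20, SE 0.18, edgeR adjusted p = 0.0118). The other condensin genes, NCAPG, NCAPH and SMC4, lay between -1.53 and -1.25.

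**Figure D3:**
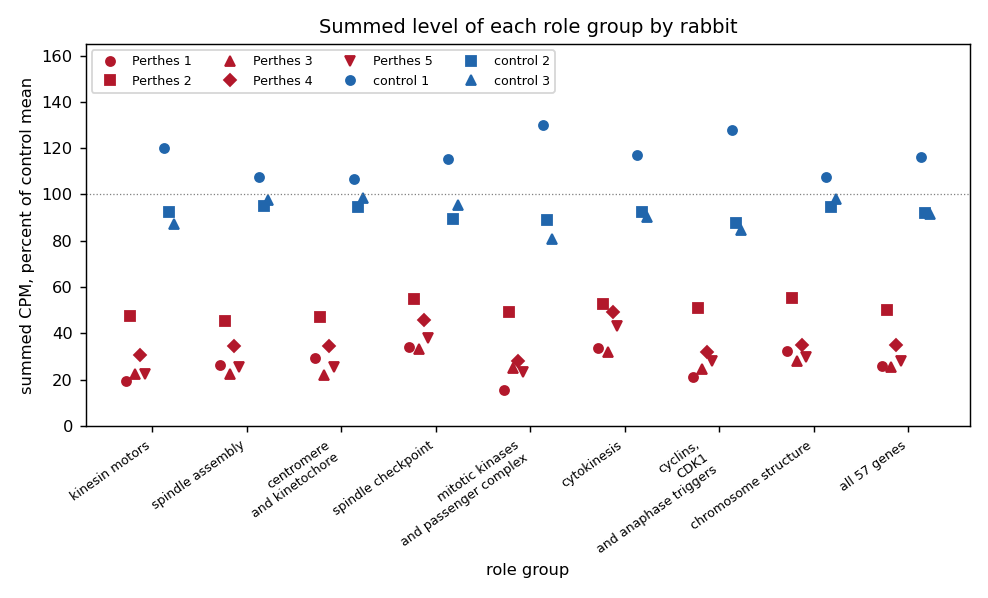
Summed CPM of each role group in each rabbit, as a percent of the mean of the 3 controls (dotted line at 100), for 5 Perthes (red) and 3 control (blue) rabbits. Every Perthes point lies between 15.6% and 55.2%, every control point lies between 81.0% and 130%, and Perthes 2 is the highest red point in each role.

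The rabbits of each group followed a similar order in most genes. Perthes 2 had the highest Perthes level in 52 of the 57 genes, and Perthes 3 or Perthes 1 had the lowest in 28 and 23 genes. Control 1 had the highest control level in 43 genes. The roles were not reduced equally within a rabbit. In Perthes 1 the summed kinases and passenger genes were at 15.6% of the control mean and the kinesins at 19.3%, while the checkpoint and cytokinesis genes were at 34.2% and 33.8%. In Perthes 2 the same 4 groups lay closer together, at 49.1%, 47.4%, 54.7% and 52.6%. These differences between roles were not tested.

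A further pattern was seen among rabbits of the same group. It compares control 1 with control 3 and Perthes 1 with Perthes 2, the ends of their groups on the first principal component. Their scores on it were 97.0 and 49.0, and -93.65 and 5.21. Whether the pattern is separate from that component was not tested. The 43 genes that were higher in control 1 than in control 3 were all lower in Perthes 1 than in Perthes 2, although 54 of the 57 genes were lower in Perthes 1 than in Perthes 2 in any case. The log2 ratio of control 1 to control 3 and that of Perthes 1 to Perthes 2 had a Pearson r of -0.79 and a Spearman rho of -0.69 across the 57 genes, against -0.39 and -0.43 across all 15305 genes (with 0.5 CPM added). The points share the same 4 libraries and genes are not independent replicates, so the values are a description with no test, and the pair of rabbits was chosen after the values were seen. At one end lay CENPA, at 1.74 and -2.90, and at the other CENPK, at -1.18 and 1.69. PLK1, AURKB, ESPL1 and KIF18B lay toward the end of CENPA, and SMC4 and CENPE toward that of CENPK.

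**Figure D4:**
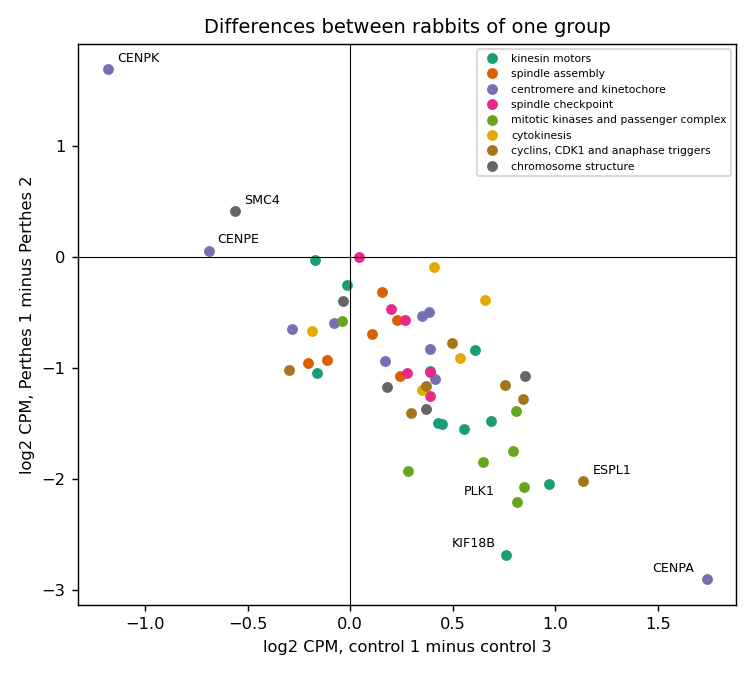
Differences between rabbits of the same group for each of the 57 genes, as log2 CPM of control 1 minus control 3 (horizontal axis) and of Perthes 1 minus Perthes 2 (vertical axis), with colors for the 8 roles. The points run from CENPK (-1.18, 1.69) at the upper left to CENPA (1.74, -2.90) at the lower right, and only CENPK, SMC4 and CENPE lie above 0 on the vertical axis.

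Other genes of mitosis moved the same way. Of 78 further mitosis genes listed, 75 were tested, with a median log2 fold change of -1.31. By edgeR, 56 were lower and 0 higher at an adjusted p below 0.05, against 8.86% and 6.21% of all genes. Without Perthes 3 and without Perthes 5 the count was 36 and 31, without control 1 it was 9, and without control 2 it was 0. MKI67, the proliferation marker that coats mitotic chromosomes, had the largest change, from 782, 850 and 849 CPM in the controls to 85.2, 315, 92.5, 150 and 85.7 CPM in Perthes 1 to 5. Every Perthes value of MKI67 was far below every control value (log2 fold change -2.51, SE 0.44, edgeR adjusted p = 0.0133). It was followed by CDC25B, a phosphatase that activates CDK1, at -2.44 (edgeR adjusted p = 0.0201) and by NEK2, a centrosomal kinase, at -2.13 (edgeR adjusted p = 0.0269).

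The subunits of the anaphase-promoting complex, the ubiquitin ligase that CDC20 activates and UBE2C serves, did not share this direction. Of 15 listed subunits 13 were tested. EdgeR called 0 lower and 0 higher, against 8.86% and 6.21% of all genes, with an unadjusted p below 0.05 in 2. DESeq2 also called 0 in either direction. The median log2 fold change was 0.14, with 5 values below 0 and 8 above. The summed level of the 13 subunits was 476 to 561 CPM in the Perthes rabbits and 484 to 519 CPM in the controls, so the ranges overlapped. The values farthest from 0 were 0.60 for CDC26 (SE 0.26, edgeR adjusted p = 0.145), -0.45 for ANAPC15 (SE 0.17, edgeR adjusted p = 0.112) and 0.38 for ANAPC11 (SE 0.40, edgeR adjusted p = 0.552). The summed mitosis genes were 1.27 to 2.69 times the summed subunits in the Perthes rabbits and 5.07 to 6.20 times in the controls.

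Genes of DNA replication act before mitosis in the same cycle. By edgeR they were lower in 37 of 40 cases and higher in 0, against 8.86% and 6.21% of all genes. Their median log2 fold change was -1.32. The largest falls were those of CDC25A at -1.85 (edgeR adjusted p = 0.0151), CCNE1 at -1.85 (edgeR adjusted p = 0.0180) and CDC6 at -1.82 (edgeR adjusted p = 0.0151). They encode a phosphatase and a cyclin of S phase entry and a factor that loads the replicative helicase. The ratio of summed mitosis to summed replication genes was 0.960 to 1.23 in the Perthes rabbits and 1.24 to 1.45 in the controls, ranges that lie next to each other.

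Among 18 transcription factors and subunits that control these genes, edgeR called 8 lower and 0 higher, against 8.86% and 6.21% of all genes. The median log2 fold change was -0.66. FOXM1, an activator of late cell cycle genes, was at 7.36, 27.9, 11.5, 18.4 and 10.8 CPM in Perthes 1 to 5 and at 69.5, 56.6 and 41.9 CPM in the controls. Its groups did not overlap (log2 fold change -1.88, SE 0.39, edgeR adjusted p = 0.0176). MYBL2, the B-Myb activator that works with the MuvB complex, was at 5.47, 28.9, 11.2, 13.5 and 9.84 CPM and at 80.5, 47.4 and 41.2 CPM, with a fall of 2.03 on the log2 scale (SE 0.46, edgeR adjusted p = 0.0227). The largest falls were those of TFDP2, a partner of E2F proteins, at -2.61 (edgeR adjusted p = 0.0206), and of the E2F repressors E2F8 at -2.20 (edgeR adjusted p = 0.0136) and E2F7 at -2.14 (edgeR adjusted p = 0.0127). The 3 subunits of NF-Y, the factor that binds CCAAT boxes, were not called by edgeR and had log2 fold changes of -0.25 (NFYA), -0.23 (NFYB) and -0.44 (NFYC). DESeq2 called 10 of the 18 lower, among them NFYC.

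**Figure D5:**
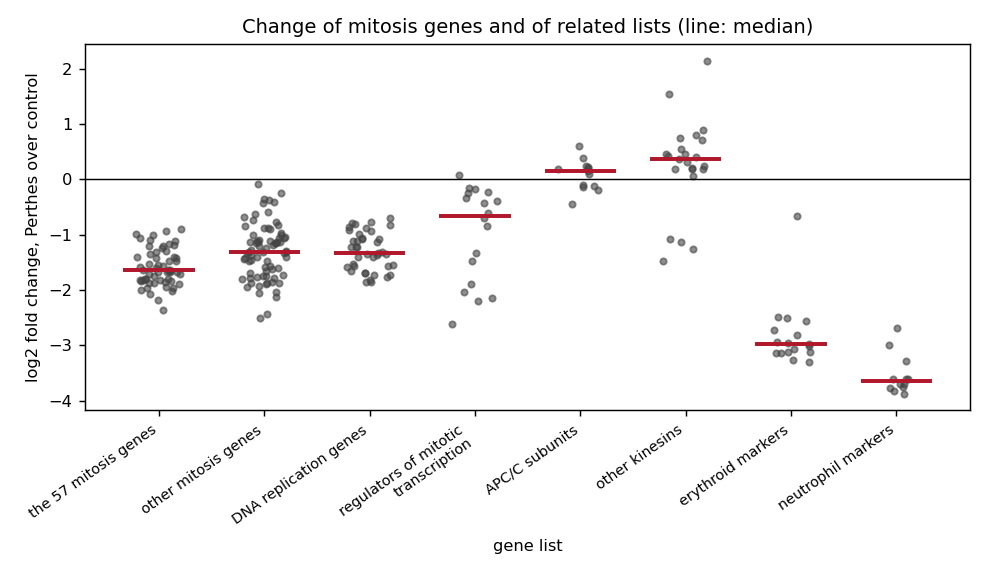
Log2 fold change, Perthes over control, of every tested gene in 8 lists, with the median of each list as a line. The medians were -1.64 for the 57 mitosis genes, -1.31 for other mitosis genes, -1.32 for replication genes, -0.66 for regulators, 0.14 for subunits of the anaphase-promoting complex (APC/C), 0.36 for other kinesins, -2.97 for erythroid markers and -3.65 for neutrophil markers.

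Kinesins outside the list were examined after the values were seen. Of 23 tested genes with a kinesin symbol, 3 were lower, 4 were higher and 16 were not called, with a median log2 fold change of 0.36. Among all genes tested, edgeR called 8.86% lower and 6.21% higher. The lower ones were KIF22 at -1.47, KIF21B at -1.27 and KIF24 at -1.13, of which KIF22 and KIF24 are also in the list of other mitosis genes. The higher ones were KIF5C, KIF26B, KIF1C and KIF13B, at 2.15, 1.54, 0.79 and 0.71.

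The methods of the study set an adjusted p below 1e-05 and a log2 fold change of more than 2 in size as thresholds. In the DESeq2 fit made here, 95 of 17451 genes (0.544%) were lower at these thresholds. That is far fewer than the paper reports as downregulated, so its list was not reproduced. Of the 57 genes, 3 were lower in this fit. They were UBE2C at -2.18, BUB1 at -2.03 and CCNB2 at -2.003.

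Summed markers of several kinds of blood cell and blood-forming cell were lower in the Perthes rabbits, with different numbers of single genes called. Among all genes tested, edgeR called 8.86% lower and 6.21% higher, and DESeq2 called 11.0% lower. Every Perthes rabbit lay below every control in 13.9% of all genes, and above in 11.2%. Of 17 erythroid precursor markers tested, 3 were called lower by edgeR and 11 by DESeq2, and all 17 had every Perthes rabbit below every control, with a median log2 fold change of -2.97. Their summed level was 1146, 21295, 3838, 3069.5 and 1403 CPM in Perthes 1 to 5 and 27866 to 44362 CPM in the controls. Perthes 2, the Perthes rabbit with the highest mitosis gene levels, also had the highest erythroid sum. It had the highest Perthes sum of neutrophil, of megakaryocyte, and of osteoblast and osteocyte markers as well. The highest Perthes sum of stem and early progenitor markers was that of Perthes 3. In the erythroid sum the other rabbits did not keep the order of the mitosis sum. Perthes 3, with the lowest mitosis sum, had a higher erythroid sum than Perthes 4. Of 12 neutrophil markers tested, listed as precursor markers, 6 were lower by edgeR and 12 by DESeq2, with a median of -3.65. They were MPO, CEBPE, LTF, CAMP, LCN2, S100A8, S100A9, S100A12, PGLYRP1, CSF3R, CXCR2 and PADI4. ELANE, PRTN3, AZU1, CTSG and MMP8 were listed but not tested, and precursors and mature neutrophils were not told apart. The summed level was 34.2, 2098, 774, 2036 and 231 CPM in Perthes 1 to 5 and 7632 to 25868 CPM in the controls. Control 1 was the highest control. Perthes 2 and then Perthes 4 were the highest Perthes rabbits, as in the mitosis sum, and Perthes 1 was the lowest. By edgeR, megakaryocyte markers were lower in 3 of 7 cases (139 to 596 CPM against 573 to 969 CPM) and stem and early progenitor markers in 3 of 10 (89.6 to 126 CPM against 179 to 214 CPM). The latter list was mixed, since 4 of its 10 log2 fold changes were positive, up to 0.56, and in 1 gene every Perthes rabbit lay above every control. By edgeR, B cell precursor markers were lower in 1 of 11 cases, or 9.09%, close to the 8.86% of all genes. Their sums overlapped, at 75.6 to 109 and 65.4 to 118 CPM. T cell markers were lower in 0 of 8 by either tool, with an unadjusted p below 0.05 in 0.

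By edgeR, macrophage markers were higher in 4 of 8 cases and lower in 1, against 6.21% and 8.86% of all genes. Their summed levels were 747 to 6937 CPM against 507 to 615 CPM, and Perthes 4 held the lowest Perthes value. Fibroblast and stromal markers were higher in 3 of 10 cases (15360.0 to 26416 CPM against 2141 to 9494 CPM), osteoclast markers in 2 of 8 (2864 to 5823 CPM against 1344 to 2437 CPM) and stress genes in 2 of 6 (350.2 to 603 CPM against 162 to 479 CPM). Endothelial markers were lower in 1 of 11 cases, close to the 8.86% of all genes (383 to 561 CPM against 477 to 592 CPM). Of the 11 osteoblast and osteocyte, 11 chondrocyte, 5 adipocyte and 3 skeletal muscle markers, edgeR called 0 in either direction, with an unadjusted p below 0.05 in 2, 4, 0 and 1, and DESeq2 called 1, an osteoblast marker that was higher. No listed marker in the table was at 0 in all 8 libraries. The part of these cell types in the change of the mitosis genes was not tested.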

How the data were processed

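Total RNA libraries of femoral heads from 5 Perthes and 3 control rabbits were used, grouped by their labels. The third control carries different numbers in its code and its title and was taken as control 3. Small RNA libraries were not used here. The authors filtered reads with SOAPnuke, and the submitters' processing notes name HISAT2 2.0.4, RSEM 1.1.17 and HTSeq 1.99.2. Expected counts, not normalized, were deposited by the authors for 16842 mRNAs and 3413 lncRNAs. A further 8 columns of per-sample values repeat those used and were left out.

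Expected counts were rounded to whole numbers. In edgeR 4.0.16 (R 4.3.3), libraries were scaled by TMM, genes were filtered with filterByExpr using the groups, and 15305 genes entered the quasi-likelihood F-test, with Benjamini-Hochberg adjustment and a threshold of 0.05. Each SE is the log2 fold change divided by the square root of F. CPM are scaled by TMM. DESeq2 1.42.0 was an alternative, besides other scalings and filters, a replicate block and leaving out each rabbit. The procedure was tested on simulated data. Each mitosis gene had 20 or more counts in every library. How far counts or the spread between rabbits limit precision was not tested. No 2 libraries agreed within sampling noise.

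The 57 genes and all lists were chosen with earlier results of these data known. In each role, the genes with most reads (highest mean CPM), the largest and the smallest fold change were named, with the 3 smallest adjusted p-values of all (ties ordered by p), and for the related lists the 3 largest changes, MKI67, FOXM1 and MYBL2. Levels are not comparable between genes, because transcript lengths were not used.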

Additional observations from a re-analysis of the deposited data

Results flagged for a closer look

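In 7 of 66 sets of Perthes values examined (57 genes, 8 role sums and the sum of all), 1 rabbit lay far from the other 4 by Dixon's criterion at 95%, which chance meets in about 1 of 20 sets. In all 7 it was Perthes 2, as the highest value. The kinetochore genes were CENPI, at 10.1 CPM against 4.80 to 6.003 CPM in the other 4 Perthes rabbits, and SPC25, at 4.34 CPM against 1.51 to 2.03 CPM. MAD2L1 of the checkpoint was at 16.1 CPM against 11.4 to 12.7 CPM, and the passenger gene BIRC5 at 2.96 CPM against 0.734 to 1.27 CPM. CDK1 was at 29.7 CPM against 13.6 to 17.4 CPM. The condensin gene NCAPG was at 31.4 CPM against 11.1 to 13.2 CPM, and the summed genes of chromosome structure were at 231 CPM against 119 to 147 CPM. The 66 sets share the same 5 rabbits and are not independent.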

How the results depend on the processing

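The median log2 fold change of the 57 genes was -1.75 with library totals as scaling and -1.84 to -1.43 when 1 rabbit was left out. The number called lower was 53 to 56 with DESeq2, other scalings and other filters, and 0 to 56 when 1 rabbit was left out, and that of the 75 other mitosis genes was 52 to 64 and 0 to 56. No gene of the 57 was called higher in any setting. At the thresholds of the study, 3 of the 57 and 2 of the 75 (MKI67 and TROAP) were lower in the DESeq2 fit made here.

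Rabbits of both groups carry the numbers 1 to 3. Same-numbered rabbits had correlated deviations of -0.32, 0.16 and -0.24, and no control correlated best with its own number. For control 2 the best value was 0.18, with Perthes 5. No pairing by number was seen, but 3 such values cannot exclude it. With the replicate number as a block, 0 of the 57 and 0 of the 75 were called, and 0 genes in the whole table. In that setting 53 of each list had an unadjusted p below 0.05 and were lower. Perthes 4 and Perthes 5 share no number with a control, so they add nothing to that comparison, which rests on fewer rabbits. How far the number of rabbits or the number of counts limits precision was not tested.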

Other observations

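Complexes that had members both inside and outside the list of 57 genes were examined after the values were seen. HAUS2 was the subunit of augmin with the largest fall, at -1.60 on the log2 scale. Of the other 7 subunits tested, HAUS4 and HAUS7 were lower at -1.11 and -1.15 (edgeR adjusted p = 0.0168 and 0.0407), and HAUS1, HAUS3, HAUS5, HAUS6 and HAUS8 were not called by edgeR, with log2 fold changes from -1.0003 to -0.42. DESeq2 called HAUS5 and HAUS6 lower as well (adjusted p = 0.0363 and 0.0372). A difference between subunits was not tested.

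The kinetochore scaffold KNL1, which recruits the checkpoint kinase BUB1, was lower at -1.95 (edgeR adjusted p = 0.0118). The 4 subunits of the Mis12 complex, on which KNL1 and the Ndc80 complex are built, differed in their calls. PMF1 was lower at -1.30 (edgeR adjusted p = 0.0270), whereas DSN1, MIS12 and NSL1 were called by neither edgeR nor DESeq2, at -0.62, -0.36 and -0.25. Among inner kinetochore genes outside the list, CENPT, CENPO, CENPU, CENPP, CENPL, CENPQ and CENPC were lower by edgeR, at -1.79 to -1.11, and CENPW, CENPS, CENPM and CENPH were not called, at -0.97 to -0.38. DESeq2 called CENPW lower (adjusted p = 0.0433).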
